A study of Mus musculus with 6 samples.

Results

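A set of 10 genes of the chondrocyte programme was followed in marrow stromal colonies: the transcription factors Sox9, Sox5 and Sox6, the cartilage matrix genes Acan, Comp, Prg4, Hapln1 and Chad, and Ihh and Pth1r of the growth plate signalling loop. They were picked by gene symbol from a list of names. Of the 10 genes, 9 were rows of the expression table, which held 14735 genes, and Chad was not among its rows. The samples were 6 single colonies from a fibroblastic colony-forming (CFU-F) assay, in which marrow cells are plated so thinly that each colony is taken to come from 1 stromal founder. Group tdTOMATO+ comprised 3 colonies with the red fluorescent reporter and group tdTOMATO- comprised 3 colonies without it. All 6 came from hind limb marrow of Col10a1-Cre;R26-tdTomato mice of strain C57BL/6, aged 2 months, were grown in hypoxia to day 10 and were lysed inside a cloning cylinder. Both groups therefore carried the same alleles. The Cre is driven by Col10a1, a gene of hypertrophic chondrocytes, and is active from the first use of that gene onwards. The label thus marks use of Col10a1 at any time, in the cell or its ancestors, and not present expression alone. A negative colony can also stem from a founder in which recombination failed. The comparison asks how colonies with the label, which the paper takes to descend from hypertrophic chondrocytes, differ in expression from colonies without it.

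SOX9 is the master regulator of the chondrocyte lineage, and SOX5 and SOX6 are its partners without an activation domain of their own, which help it to bind and switch on Col2a1, Acan and other cartilage genes. Aggrecan (Acan) is the large proteoglycan that holds water in cartilage, and the link protein encoded by Hapln1 fixes it to hyaluronan. COMP (Comp) and chondroadherin (Chad) bind collagen fibrils, and lubricin (Prg4) coats joint surfaces. IHH is secreted by prehypertrophic chondrocytes and acts through PTHrP, whose receptor is PTH1R, to set the pace of chondrocyte maturation, while PTH1R is also a receptor of osteoblasts and marrow stroma. SOX proteins bind a short DNA core around ACAAT or ACAAAG.

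The 3 genes with the most negative fold change estimates were Acan, Sox5 and Sox6, and the sequence before their RefSeq starts (build GRCm38.p6) is printed to display what a SOX core match looks like at these genes. Each is written 5′ to 3′ on the strand of its gene, and capitals mark ACAAT or ACAAAG on either strand. The Sox5 window is chr6:143947107-143947356 (minus strand, 250 bases) and lies inside the longer span that GENCODE M21 gives the gene. The Sox6 window is chr7:116038797-116038994 (minus strand, 198 bases), before the most upstream of 6 listed starts, with 52 exonic bases left out. The Acan window is chr7:79052976-79053225 (plus strand, 250 bases).
Sox5: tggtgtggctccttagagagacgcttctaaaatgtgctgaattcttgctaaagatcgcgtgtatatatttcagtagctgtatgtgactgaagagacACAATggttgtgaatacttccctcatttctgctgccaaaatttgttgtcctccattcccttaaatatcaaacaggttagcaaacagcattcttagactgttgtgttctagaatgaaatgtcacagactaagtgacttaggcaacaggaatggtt
Sox6: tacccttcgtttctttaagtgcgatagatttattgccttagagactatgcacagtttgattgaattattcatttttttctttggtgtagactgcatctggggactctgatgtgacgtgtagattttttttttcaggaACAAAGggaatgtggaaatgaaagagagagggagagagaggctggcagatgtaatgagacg
Acan: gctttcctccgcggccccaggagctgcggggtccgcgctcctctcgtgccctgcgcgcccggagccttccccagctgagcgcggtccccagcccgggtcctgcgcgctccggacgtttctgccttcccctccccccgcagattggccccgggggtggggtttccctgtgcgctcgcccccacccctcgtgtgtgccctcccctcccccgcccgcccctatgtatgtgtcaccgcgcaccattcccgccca
The Sox5 window held 1 ACAAT and the Sox6 window 1 ACAAAG. The Acan window held neither, and 74.4% of its bases were G or C, against 39.6% at Sox5. Over 32851 RefSeq windows of 250 bases, 27.7% held ACAAT, 16.5% ACAAAG and 38.8% either core, so a match is common, and none of these letters was tested for binding. The table of start sequences covered 7 of the 10 genes.

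Depth was even across colonies, with 24085516 to 31046589 reads in genes as recovered from the normalized values. Col2a1, the main collagen of cartilage, was abundant in every colony, at 72608, 129948 and 18940 normalized counts in tdTOMATO+ colonies and 65479, 131016 and 136159 in tdTOMATO- colonies. Per kilobase of exon it stood above 99.6% of all genes. Other defining chondrocyte markers (Matn1, Cnmd, Snorc and Ucma) were not rows of the table, and the label of chondrocyte genes thus describes the genes and not the cells. The pan-leukocyte gene Ptprc was present in all 6 colonies, at 1806, 1708 and 1399 normalized counts in tdTOMATO+ colonies and 1074, 932 and 1025 in tdTOMATO- colonies.

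Seen per kilobase of merged exon, so that genes of different length can be set side by side, the 9 genes spanned a wide range of levels. Pth1r averaged 1395 normalized counts per kilobase over the 6 colonies and stood above 95.6% of all genes. Sox9 followed at 234 and Comp at 133, above 69.5% and 55.1% of genes. Hapln1 averaged 9.87 per kilobase and the remaining genes were lower, with Prg4 at 3.88, Acan at 3.77, Sox6 at 3.49, Ihh at 3.36 and Sox5 at 3.19. Neighbours among these 5 lowest genes did not differ beyond their spread, with overlapping colony ranges, from 0 to 21.6 per kilobase for Acan and from 1.56 to 8.49 for Sox6. The ranges of Sox9 (149 to 378) and Comp (72.5 to 201) also overlapped, whereas that of Pth1r (966 to 1832) lay above all others and that of Hapln1 (6.29 to 15.7) met the upper end of each of the 5 lowest genes.

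Sox9 and Sox6 were lower in every tdTOMATO+ colony than in any tdTOMATO- colony, and none of the 9 genes was higher in every tdTOMATO+ colony. Neither difference passed the test after adjustment over all genes: 0 of the 9 genes had an adjusted p under 0.05 in limma, in a table where 1.34% of genes did (1.20% higher and 0.143% lower). At an unadjusted p under 0.05 limma counted 2 of the 9 as lower (all genes: 4.79%) and 0 as higher (all genes: 7.53%). After adjustment edgeR called 0 (all genes: 1.28%, 0.129% lower) and DESeq2 called 1 as lower, Sox9 (all genes: 4.46%, 1.08% lower). DESeq2 gave no p-value for Acan, and its shares count genes without an adjusted p as not called. The 2 genes without overlap compare with 8.33% of all genes for which every tdTOMATO+ colony was the lower, and the 0 on the other side with 9.89%. Of the 9 fold changes 6 were below 0 and 3 above, with a median of -0.63 on the log2 scale against -0.0046 over all genes. These p-values measure the spread among these colonies, since no source says that they came from separate mice.

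**Figure D1:**
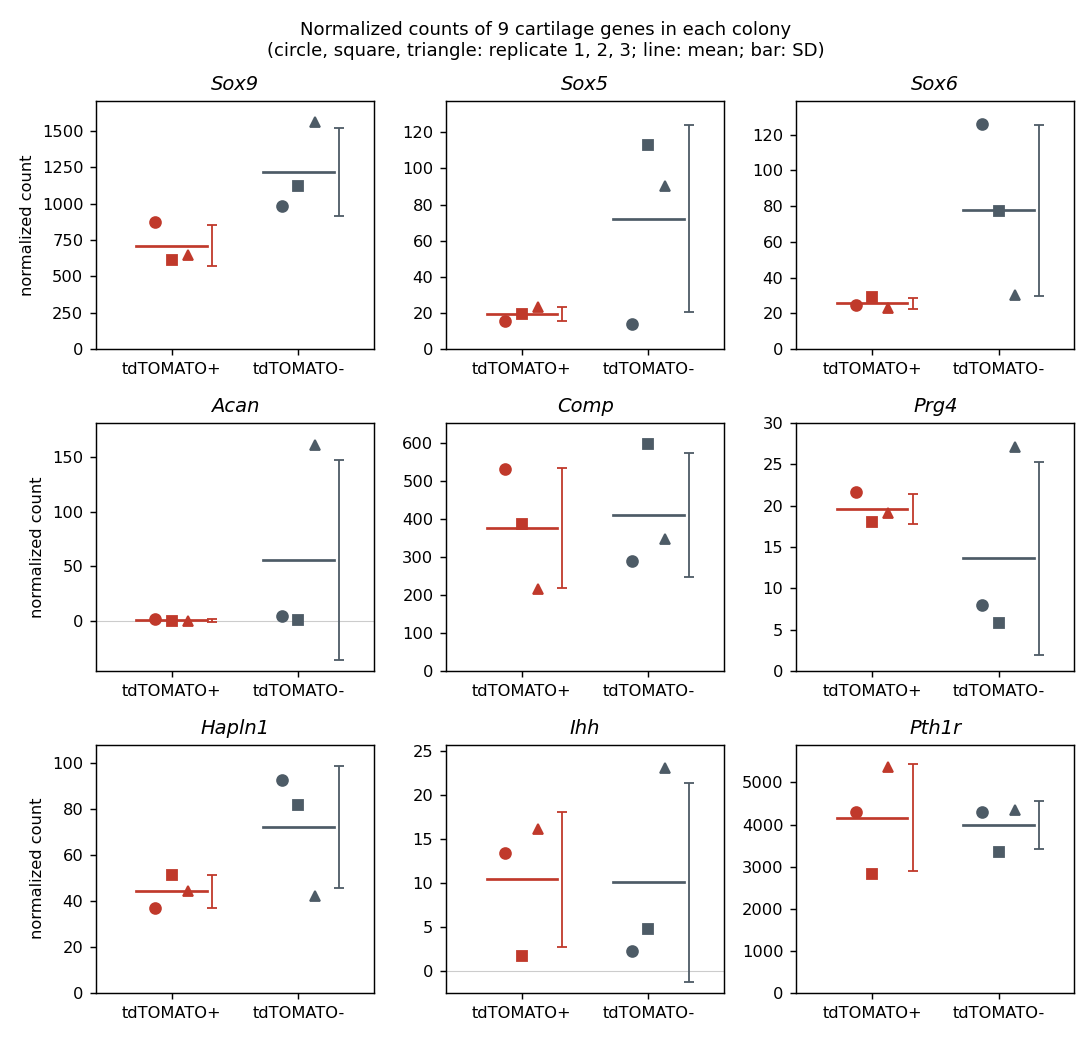
Normalized count (y axis, linear) of each of the 9 measured genes in the 3 tdTOMATO+ colonies (left, red) and 3 tdTOMATO- colonies (right, grey); circles, squares and triangles are replicates 1, 2 and 3, lines are means and bars 1 SD. Sox9 and Sox6 do not overlap between groups, and 1 tdTOMATO- colony carries nearly all Acan, at 161 normalized counts.

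Sox9 (chr11:112782224-112787760, plus strand) read 874, 615 and 645 normalized counts in tdTOMATO+ colonies, against 981, 1121 and 1562 in tdTOMATO- colonies. The groups were separate, but the closest pair of colonies lay near each other, at 874 and 981. The means were 711 ± 142 in tdTOMATO+ and 1221 ± 303 in tdTOMATO- colonies (SD, n = 3 each), a log2 fold change of -0.77 ± 0.21 (SE; 95% interval -1.26 to -0.28; limma adjusted p = 0.183). In bulk colonies, fewer cells that use a gene and less RNA of it per cell cannot be told apart. DESeq2 on recovered reads gave nearly the same change, -0.78, with an adjusted p of 0.00807, whereas edgeR gave an adjusted p of 0.193. The fold change stayed negative whichever colony was left out, between -0.93 and -0.58.

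Sox6 (chr7:115470872-116038796, minus strand) was a low gene with 24.7, 29.2 and 23.1 normalized counts in tdTOMATO+ colonies, against 126, 77.1 and 30.1 in tdTOMATO- colonies. The tdTOMATO+ colonies were near alike, while the tdTOMATO- colonies spanned 4.19-fold and replicate 3 lay just above the tdTOMATO+ range. Its log2 fold change was -1.35 ± 0.49 (SE; 95% interval -2.49 to -0.20; limma adjusted p = 0.312), with an adjusted p of 0.238 in edgeR and 0.0517 in DESeq2. Leaving out tdTOMATO- replicate 1, the highest colony, brought the estimate to -0.89, and leaving out tdTOMATO- replicate 3 to -1.91.

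Sox5 (chr6:143828425-144781977, minus strand), the partner most similar in role to Sox6, read 15.5, 19.7 and 23.1 normalized counts in tdTOMATO+ colonies, against 13.7, 113 and 90.2 in tdTOMATO- colonies. Replicates 2 and 3 of tdTOMATO- stood well above the rest and replicate 1 was the lowest of all 6, so the groups overlapped. Between groups the log2 fold change was -1.41 ± 0.77 (SE; 95% interval -3.25 to 0.44; limma adjusted p = 0.547). Without tdTOMATO- replicate 1 it was -2.34 with a limma adjusted p of 0.0199, the only leave-one-out fit in which any of the 9 genes was called, while without tdTOMATO- replicate 2 it was -0.86 (limma adjusted p = 0.815). The SOX partners were both high in 1 colony and unlike in the other tdTOMATO- colonies: tdTOMATO- replicate 1 had the most Sox6 and the least Sox5, tdTOMATO- replicate 2 had much of both, and tdTOMATO- replicate 3 had the most Sox9, much Sox5 and little Sox6. Antisense and intronic transcripts are annotated within Sox5 and Sox6, and whether counting used the strand is not given in the sources used here.

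Other members of the SOX family gave no calls. Of 16 listed, 5 were in the table and 0 passed the test with limma, edgeR or DESeq2 (1 at an unadjusted limma p under 0.05), with a median log2 fold change of 0.01. Sox4, a factor of many progenitor cells, read 4304, 4137 and 4201 normalized counts in tdTOMATO+ colonies, against 4372, 4350 and 3310 in tdTOMATO- colonies. Sox12, of the same SOXC group as Sox4, read 317, 291 and 327 in tdTOMATO+ colonies and 380, 378 and 409 in tdTOMATO- colonies, without overlap, at a log2 fold change of -0.32 ± 0.10 (SE; limma adjusted p = 0.23). Sox13, of the same SOXD group as Sox5 and Sox6, had -0.24 ± 0.40 (SE; limma adjusted p = 0.884) and overlapping colonies.

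**Figure D2:**
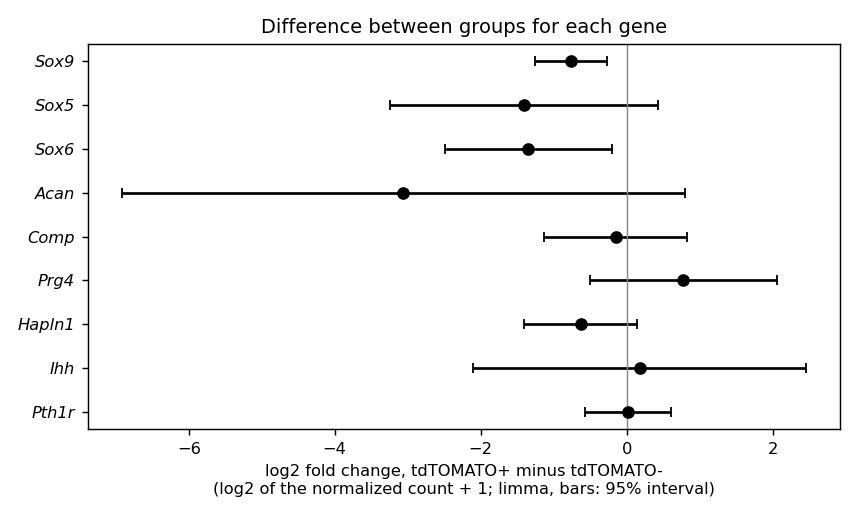
Log2 fold change of each gene, tdTOMATO+ minus tdTOMATO- (x axis, log2 of the normalized count + 1), with its 95% interval from limma. The intervals of Sox9 and Sox6 lie below 0, and that of Acan is the widest, from -6.92 to 0.80.

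Acan (chr7:79053483-79115099, plus strand) was close to absent from 5 of the 6 colonies. It read 2.06, 0 and 0 normalized counts in tdTOMATO+ colonies, against 4.58, 0.964 and 161 in tdTOMATO- colonies. The colony tdTOMATO- replicate 3 held 95.5% of the normalized Acan counts of all 6. In reads the groups held 2 in tdTOMATO+ against 166 in tdTOMATO- colonies, a depth-corrected ratio of 0.0112 (95% interval 0.00134 to 0.0411, counting error only), and without tdTOMATO- replicate 3 they held 2 against 5, a ratio of 0.244 (0.0232 to 1.49). The limma log2 fold change of -3.06 ± 1.62 (SE; adjusted p = 0.523) depends on the pseudocount at such counts and is no bound. Per kilobase of exon Acan averaged 3.77 normalized counts over the 6 colonies and Col2a1 9992, and tdTOMATO+ replicate 2 had 129948 normalized counts of Col2a1 and no Acan read.

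Hapln1 (chr13:89539796-89611652, plus strand), the link protein of aggrecan, was present in every colony, also in those with no Acan read. It read 37.1, 51.5 and 44.2 normalized counts in tdTOMATO+ colonies, against 92.7, 81.9 and 42.1 in tdTOMATO- colonies. Replicates 1 and 2 of tdTOMATO- were high and replicate 3, the colony with Acan, lay within the tdTOMATO+ range. The log2 fold change was -0.63 ± 0.33 (SE; 95% interval -1.40 to 0.14; limma adjusted p = 0.513), and it was -0.41 without tdTOMATO- replicate 1 and -0.97 without tdTOMATO- replicate 3.

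Comp (chr8:70373558-70382066, plus strand) varied as much within each group as between them. It read 531, 386 and 215 normalized counts in tdTOMATO+ colonies, against 290, 598 and 347 in tdTOMATO- colonies. The log2 fold change was -0.15 ± 0.40 (SE; 95% interval -1.13 to 0.83; limma adjusted p = 0.933), and its sign turned, to 0.21, without tdTOMATO+ replicate 3 and, to 0.16, without tdTOMATO- replicate 2.

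Prg4 (chr1:150449412-150466165, minus strand) was low, at 21.7, 18.0 and 19.1 normalized counts in tdTOMATO+ colonies, against 8.01, 5.78 and 27.1 in tdTOMATO- colonies. The tdTOMATO+ colonies were even, and the lowest and the highest of the 6 were both tdTOMATO-. Its log2 fold change was 0.78 ± 0.55 (SE; 95% interval -0.51 to 2.06; limma adjusted p = 0.659), 1.39 without tdTOMATO- replicate 3 and 0.37 without tdTOMATO- replicate 2. Prg4 shares 524 bases with Tpr, a nuclear pore gene on the other strand with 7425 to 8008 normalized counts in these colonies, and without strand, reads of the pair in these bases cannot be told apart. Chad (chr11:94565047-94569127, plus strand) lies inside Acsf2 on the opposite strand and is not analysed here.

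Ihh (chr1:74945315-74951672, minus strand) was near the detection limit, with 13.4, 1.72 and 16.1 normalized counts in tdTOMATO+ colonies, against 2.29, 4.82 and 23.1 in tdTOMATO- colonies. Both groups held low and high colonies, and the totals were nearly the same, at 31 reads in tdTOMATO+ and 30 in tdTOMATO- colonies (depth-corrected ratio 0.96, 95% interval 0.562 to 1.64, counting error only). The log2 fold change of 0.18 ± 0.97 (SE; limma adjusted p = 0.969) had a 95% interval from -2.10 to 2.46. Without tdTOMATO- replicate 3, the highest colony, the read ratio was 2.70 (1.17 to 7.27, counting error only) and without tdTOMATO- replicate 1 the log2 fold change was -0.44.

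Pth1r (chr9:110722085-110747145, minus strand) was the most abundant of the 9 genes. It read 4306, 2826 and 5358 normalized counts in tdTOMATO+ colonies, against 4293, 3341 and 4353 in tdTOMATO- colonies. The highest and the lowest colony were both tdTOMATO+. The log2 fold change was 0.02 ± 0.24 (SE; limma adjusted p = 0.986). Its 95% interval ran from -0.57 to 0.61, so a difference within that range remained possible in either direction. Its ligand gene Pthlh was not a row of the table. Of 19 listed genes of the PTHrP and hedgehog axis 13 were measured and 0 passed the test (DESeq2: 1, Gas1), with a median log2 fold change of 0.03. The smallest p-values were those of Gas1, a hedgehog co-receptor (0.82 ± 0.24, SE; limma adjusted p = 0.224), Kif7, a ciliary regulator of GLI factors (-0.36 ± 0.13; limma adjusted p = 0.308), and Cdon, another co-receptor (0.45 ± 0.19; limma adjusted p = 0.401).

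**Figure D3:**
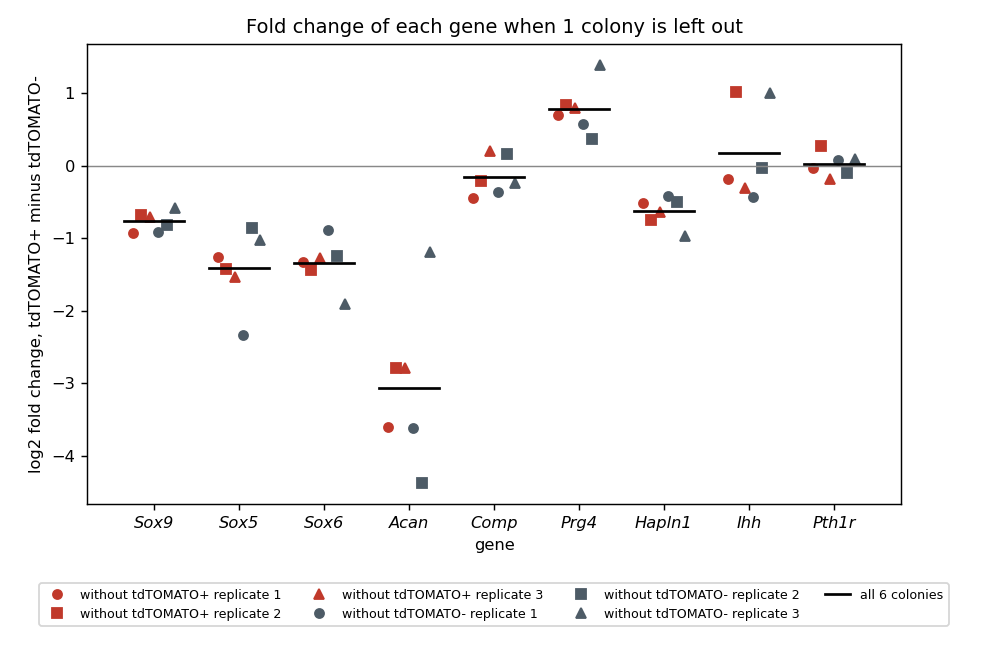
Log2 fold change of each gene (y axis, tdTOMATO+ minus tdTOMATO-) with all 6 colonies (line) and with 1 colony left out (red, a tdTOMATO+ colony; grey, a tdTOMATO- colony; circle, square and triangle, replicates 1, 2 and 3). Sox9, Sox5, Sox6, Acan and Hapln1 stay below 0 and Prg4 above 0, while Comp, Ihh and Pth1r fall on both sides.

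The spread among colonies was also compared between groups. The SD of the log2 values was the larger in tdTOMATO- colonies for 7 of the 9 genes, all but Comp and Pth1r, against 59.8% of all genes. Its median over the 9 genes was 0.277 in tdTOMATO+ and 1.03 in tdTOMATO- colonies, and over all genes 0.138 in tdTOMATO+ and 0.173 in tdTOMATO- colonies. Among 11 other cartilage matrix genes it was the larger in tdTOMATO- colonies for 5, with medians of 0.327 in tdTOMATO+ and 0.348 in tdTOMATO- colonies. Among the 7 cartilage collagens it was the larger in tdTOMATO- colonies for 6, with medians of 0.437 in tdTOMATO+ and 0.598 in tdTOMATO- colonies. Replicate 3 of tdTOMATO- was the highest colony for 4 of the 9 genes (Sox9, Acan, Prg4 and Ihh), against 20.9% of all genes. It was the highest for 27.3% of the 11 other cartilage matrix genes and 42.9% of the 7 cartilage collagens. These shares were the same for tdTOMATO- replicate 1, and tdTOMATO+ replicate 1 was also the highest for 27.3% of the matrix genes. A tdTOMATO+ colony was the highest for 1 of the 9 genes, Pth1r. Over all genes tdTOMATO+ replicates 1, 2 and 3 were the highest colony for 12.4%, 12.8% and 17.2%. Of the 9 genes, 4 averaged under 50 normalized counts, and the part of a low level in the spread was not tested.

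Of 21 other cartilage matrix genes 11 were measured, 8 had a log2 fold change below 0 (7517 of the 14735 genes did) and 0 were called (DESeq2: 1 higher and 2 lower), with a median log2 fold change of -0.50 against -0.0046 over all genes. Thbs3, a relative of Comp, read 485, 468 and 366 normalized counts in tdTOMATO+ colonies, against 861, 826 and 538 in tdTOMATO- colonies (-0.73 ± 0.20, SE; limma adjusted p = 0.186). Cilp2, a matrix protein of the intermediate layer of cartilage, read 7.22, 4.29 and 5.02 in tdTOMATO+ colonies, against 11.4, 32.8 and 26.1 in tdTOMATO- colonies (-1.81 ± 0.49; limma adjusted p = 0.161). Neither gene overlapped between groups. Matn2, a matrilin found widely outside cartilage, lay the other way without overlap, at 1015, 797 and 862 in tdTOMATO+ colonies and 607, 591 and 680 in tdTOMATO- colonies (0.50 ± 0.11; limma adjusted p = 0.0857). Among the cartilage collagens 7 of 8 were measured and 0 called by limma, edgeR or DESeq2 (0 also at an unadjusted limma p under 0.05), with a median of -0.21.

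The cartilage collagens were present in both groups. Col2a1 was lowest in tdTOMATO+ replicate 3 and had a log2 fold change of -0.90 ± 0.76 (SE; limma adjusted p = 0.734), which was -0.12 without that colony and -1.51 without tdTOMATO+ replicate 2. Col10a1, the hypertrophic collagen whose promoter drives the Cre, read 634, 521 and 529 normalized counts in tdTOMATO+ colonies, against 597, 1178 and 799 in tdTOMATO- colonies, and was thus detected in both groups (-0.56 ± 0.24; limma adjusted p = 0.425). Col11a2, which helps to build the same heterotypic fibrils as Col2a1, read 84.5, 55.7 and 101 in tdTOMATO+ colonies, against 252, 88.7 and 127 in tdTOMATO- colonies (-0.85 ± 0.41; limma adjusted p = 0.471).

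**Figure D4:**
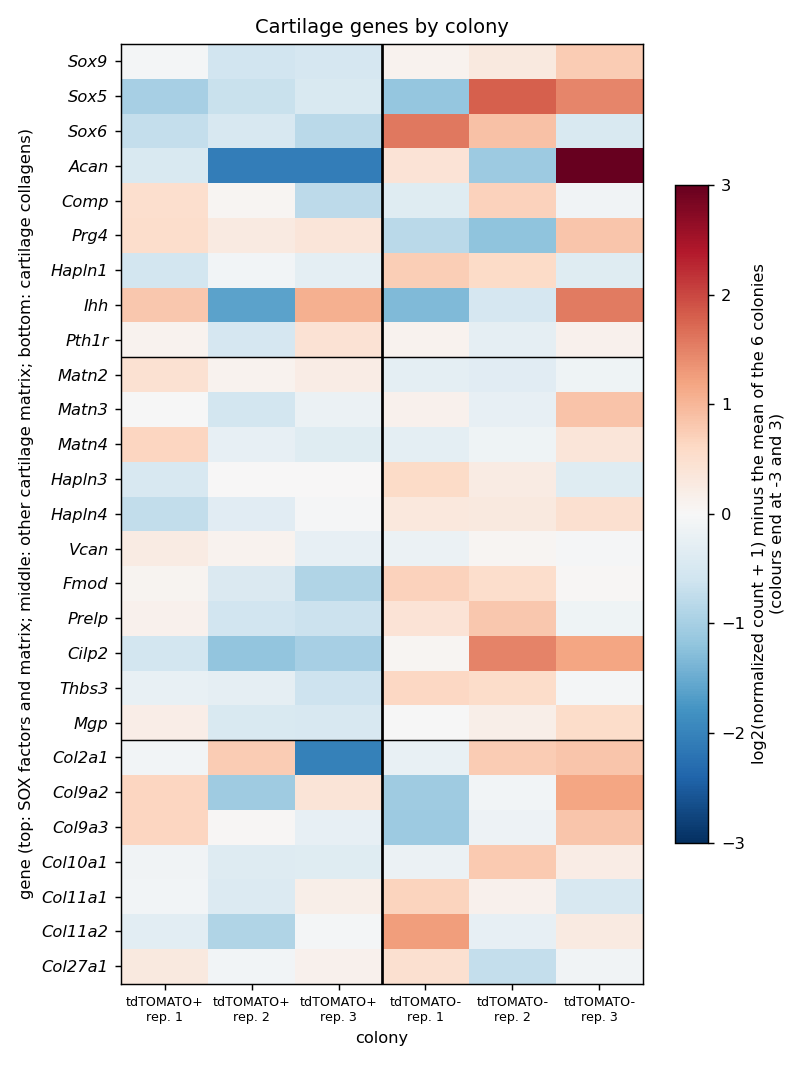
Heat map of the 9 genes (top), other cartilage matrix genes (middle) and cartilage collagens (bottom) by colony, tdTOMATO+ at left and tdTOMATO- at right of the line; colour is log2 of the normalized count + 1 minus the mean of the 6 colonies. The Acan signal sits in tdTOMATO- replicate 3, and Sox5 and Sox6 are both high in tdTOMATO- replicate 2.

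The sugar chains of aggrecan are made and trimmed by a large set of enzymes. All 27 listed genes of chondroitin sulphate and hyaluronan synthesis were measured and 0 were called (DESeq2: 1 higher and 2 lower), with a median log2 fold change of -0.05. Chst11, a chondroitin sulphotransferase, came closest (0.56 ± 0.11, SE; limma adjusted p = 0.0595), ahead of Chsy3, a chondroitin synthase (-0.78 ± 0.18; limma adjusted p = 0.111), and Chpf, its polymerising partner (-0.32 ± 0.09; limma adjusted p = 0.158). Of 12 genes of aggrecan and hyaluronan turnover 11 were measured and 1 rose (DESeq2: also 1), against 1.20% of all genes with limma. The riser was Timp3, an inhibitor of aggrecanases. Timp3 read 135661, 160617 and 200430 normalized counts in tdTOMATO+ colonies, against 92384, 85704 and 92200 in tdTOMATO- colonies (0.86 ± 0.14, SE, limma adjusted p = 0.0391). Its groups did not overlap, as for 9.89% of all genes on the higher side.

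Regulators and hypertrophic genes gave the other 2 calls outside the leukocyte lists. Among chondrogenic regulators 18 of 21 were measured and 1 rose (all genes: 1.20%; DESeq2: 2 of the list), Trps1, a GATA-type repressor of the growth plate, at 2954, 2786 and 2794 normalized counts in tdTOMATO+ colonies, against 2141, 1973 and 2250 in tdTOMATO- colonies (0.42 ± 0.07, SE; limma adjusted p = 0.0392). All 11 hypertrophic genes were measured, 7 with a log2 fold change above 0 and 4 below, with a median of 0.31. Col10a1 was among those below (-0.56). In this list 1 rose (DESeq2: 3), against 1.20% of all genes with limma. It was Mmp13, a collagenase of late hypertrophic chondrocytes and osteoblasts, at 18036, 12347 and 20536 in tdTOMATO+ colonies, against 3844, 6181 and 5988 in tdTOMATO- colonies (1.67 ± 0.26, limma adjusted p = 0.0452). Ibsp, a bone and hypertrophic matrix sialoprotein, had a larger estimate that missed the threshold (2.16 ± 0.39; limma adjusted p = 0.0757), as did Runx2, the driver of hypertrophy and osteoblast formation (0.44 ± 0.10; limma adjusted p = 0.0921). The calls of Timp3, Trps1 and Mmp13 were each lost on leaving out any 1 of the 6 colonies, with adjusted p-values from limma of 0.0525 to 0.159, and also with no mean-variance trend and under the replicate block.

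Leukocyte genes moved with the groups. Of 12 macrophage genes 9 rose (all genes: 1.20%) and 12 did not overlap on the higher side (all genes: 9.89%), with a summed level of 66513 to 70811 normalized counts in tdTOMATO+ colonies and 37745 to 38179 in tdTOMATO- colonies. Of 10 pan-leukocyte genes 10 rose, with sums of 18546 to 22483 in tdTOMATO+ and 12181 to 12467 in tdTOMATO- colonies. Cd68, a macrophage marker, had a log2 fold change of 1.05 ± 0.07 (SE; limma adjusted p = 0.00546) and Csf1r, the receptor of macrophage colony-stimulating factor, 0.67 ± 0.07 (limma adjusted p = 0.0135). With 1 colony left out, limma called 1 to 9 of the macrophage genes (1 without tdTOMATO+ replicate 1 or 2, and 2 without tdTOMATO- replicate 2) and 0 to 8 of the pan-leukocyte genes (0 without any of the same 3 colonies, and 4 without tdTOMATO- replicate 3). With no mean-variance trend it called 0 genes of either list, and under the replicate block 8 macrophage and 6 pan-leukocyte genes. No defining marker of either list was at 0 in any colony. Their part in the lower Sox9 and Sox6 values was not tested.

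**Figure D5:**
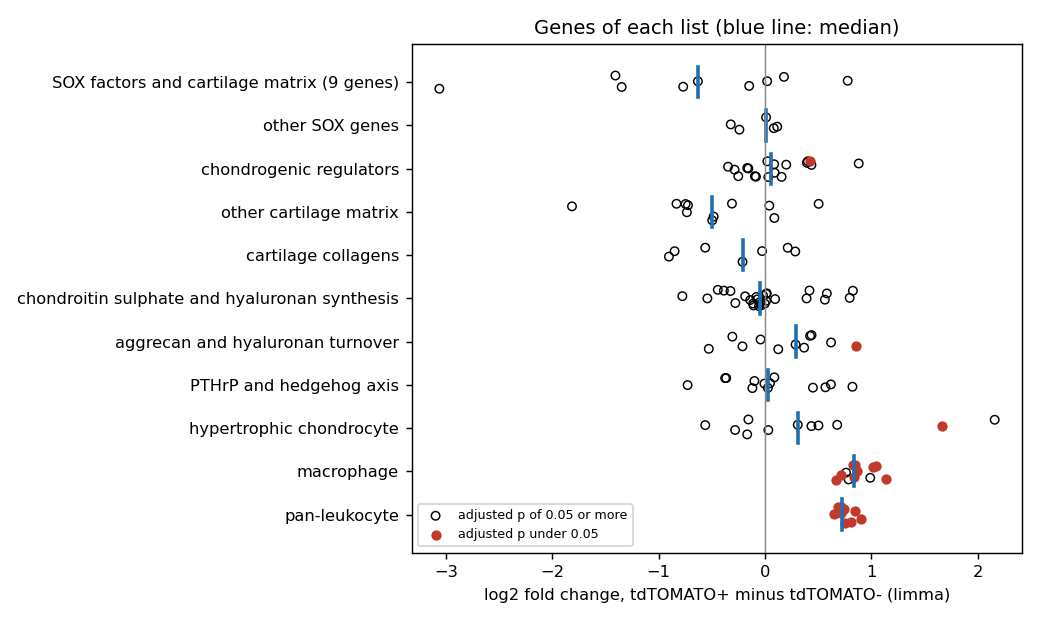
Log2 fold change (x axis, tdTOMATO+ minus tdTOMATO-) of each measured gene of each list (rows); filled points have a limma adjusted p under 0.05, open points do not, and blue lines are medians. The SOX and matrix genes have a median of -0.63 with 0 calls, and the macrophage and pan-leukocyte genes medians of 0.84 and 0.73.

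The colony patterns of 5 of the 9 genes, whose mean reached 50 normalized counts, were set against all 11671 genes with that mean. The likeness is Pearson's r of the log2 values over 6 colonies, given as a description, since all points share the same 6 libraries. Sox9 was most like Rpn1 (r = 0.994), Add3 (0.985) and Gtpbp3 (0.985). Sox6 was most like RP23-418G1.1 (0.9996), Ppp2r2d (0.994) and Prdm4 (0.994). Comp was most like Mcm6 (0.985) and Afg3l2 (0.982). Hapln1 was most like Gm561 (0.988), Eef1b2 (0.979) and Pdpk1 (0.979), and Pth1r was most like Fam63b (0.974), Gnptg (0.974) and Mpnd (0.972). At least 13 genes reached an r of 0.95 with each of the 5, up to 61 for Sox6.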

How the data were processed

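RNA of 6 single colonies (3 tdTOMATO+, 3 tdTOMATO-) was sequenced by the authors as single-end reads, which were trimmed with Trim Galore, aligned with STAR to GRCm38 (single-location reads kept), counted per gene with HTSeq, filtered to keep genes that reached 10 reads in 1 library or more, and normalized with DESeq2. Versions, and whether counting used the strand, are not given in the sources used here. The deposited values are these DESeq2-normalized counts, a signal and not raw counts, in 1 table with 14735 genes. The table also holds the authors' own fold changes and p-values, which were not used. All values were whole multiples of 1 step per library, so reads could be recovered, with 24085516 to 31046589 per library. The tolerance was 0.001 and widened in proportion to the count for high genes, where the check is weaker. Whole reads limit the precision of genes with few reads, and intervals on reads cover counting error only.

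The groups were compared with limma 3.58.1 (trend and robust, two-sided) in R 4.3.3 on log2(normalized count + 1), a scale that understates changes of low genes, with Benjamini-Hochberg adjustment over all 14735 genes and a threshold of 0.05. With 3 colonies against 3, an exact permutation test of a single gene cannot go below p = 0.1. Alternatives were pseudocounts of 0.5 and 10, a mean of at least 10, scaling by reads in genes, edgeR 4.0.16 and DESeq2 1.42.0 on recovered reads, no mean-variance trend, the replicate number as a block, and each colony left out. The fit was tested on simulated data.

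Gene lists (other SOX genes, chondrogenic regulators, other cartilage matrix, cartilage collagens, chondroitin sulphate and hyaluronan synthesis, aggrecan and hyaluronan turnover, PTHrP and hedgehog axis, hypertrophic chondrocyte, articular and synovial, tendon, osteoblast, adipocyte, marrow stroma, macrophage, pan-leukocyte and endothelium) and the 10 genes were chosen with earlier results of these data known. Named were all 10 genes, of each list the genes called and the 3 with the smallest p, the markers Ptprc, Csf1r, Cd68, Lepr, Cxcl12, Pdgfra, Bglap, Col2a1 and Col10a1, and the 3 genes most alike to each of the 10 with a mean of at least 50, of which 1 is not reported here. Genes were matched to GENCODE M21 by Ensembl ID (14585 of 14735) for coordinates and exon length.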

Additional observations from a re-analysis of the deposited data

How the results depend on the processing

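Of 126 values of the 9 genes under 14 alternatives, 115 kept their direction and their side of the threshold, 9 turned sign (all leave-one-out fits of Comp, Ihh and Pth1r) and 2 gained a call, Sox9 with DESeq2 and Sox5 without tdTOMATO- replicate 1. The 115 include Acan with DESeq2, which kept its direction but had no p-value. The count of called genes among the 9 was 0 higher in every alternative, and for lower it was 1 with DESeq2 and 0 to 1 in leave-one-out fits. Over all genes tested, 177 were higher and 21 lower in tdTOMATO+ with limma; DESeq2 called 498 and 159, a fit with no mean-variance trend 1 and 0, and leave-one-out fits 1 to 178 and 0 to 44, with few calls when tdTOMATO+ replicate 2 (1 and 0), tdTOMATO+ replicate 1 (9 and 8) or tdTOMATO- replicate 2 (15 and 1) was left out. The cause was not tested. Leave-one-out log2 fold changes ran from -0.44 to 0.21 for Comp, -0.44 to 1.02 for Ihh and -0.19 to 0.28 for Pth1r, and signs also turned for Sox4 (-0.050 to 0.15), Sox13 (-0.60 to 0.10), Scx (-0.68 to 0.13), Mkx (-0.057 to 0.31), Fabp4 (-1.12 to 0.16), Tek (-1.09 to 0.25), Tie1 (-0.37 to 1.59), Cxcl12 (-0.10 to 0.40) and Pdgfra (-0.81 to 0.20). Same-numbered colonies of the groups correlated at 0.10, 0.01 and 0.20 in their deviations from the group means, and different-numbered ones at -0.15 to 0.087. These values cannot settle whether the numbers pair colonies. No source says that they do, so the replicate block was only an alternative. With the replicate block limma called 124 genes higher and 24 lower, 0 of the 9, gained Chst11, Lepr and 2 of the other cartilage matrix genes (1 of them Thbs3), lost Trps1, Timp3 and Mmp13, and called 8 in place of 9 macrophage genes and 6 in place of 10 pan-leukocyte genes. Calls were gained by Runx2 and Pdgfra (adjusted p = 0.0243 and 0.0445) without tdTOMATO- replicate 1, by Chsy3 (0.0489) without tdTOMATO- replicate 3 and by Lepr (0.0317) without tdTOMATO+ replicate 3. Acan, Ihh and Prg4 rest on few reads (2, 31 and 61 in tdTOMATO+ colonies, and 166, 30 and 40 in tdTOMATO- colonies), which limits what could be detected.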

Other observations

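Genes of the neighbouring lineages gave 0 calls by limma after adjustment in 6 lists. In the tendon list 3 of 5 genes were measured, 0 had an unadjusted p under 0.05 and the median log2 fold change was -0.29. In the adipocyte list (5 of 7 measured) and the endothelium list (5 of 6) that count was also 0, with medians of -0.28 and 0.28. The articular and synovial list (7 of 10 measured) had 1 gene higher and 1 lower at an unadjusted p under 0.05 and a median of 0.71, the osteoblast list (10 of 11) had 3 higher and 1 lower and a median of -0.01, and the marrow stroma list (8 of 8) had 1 higher and 1 lower and a median of 0.11. edgeR called 0 genes of these lists, and DESeq2 called 1 gene each, higher, of the articular and synovial, osteoblast and marrow stroma lists.

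Lepr, the leptin receptor of marrow stroma, had the largest estimate of the marrow stroma list, with 408, 354 and 1132 normalized counts in tdTOMATO+ colonies, against 97.3, 69.4 and 108 in tdTOMATO- colonies (log2 fold change 2.59 ± 0.46, SE; limma adjusted p = 0.0647). The groups did not overlap. Alpl, alkaline phosphatase of osteoblasts and hypertrophic chondrocytes, was also separate between groups, at 25434, 24530 and 40856 in tdTOMATO+ colonies and 23410, 19364 and 19758 in tdTOMATO- colonies (0.50 ± 0.20; limma adjusted p = 0.39). The osteoblast product Bglap read 197, 111 and 167 in tdTOMATO+ colonies, against 269, 194 and 257 in tdTOMATO- colonies (-0.62 ± 0.24; limma adjusted p = 0.336), with an overlap of 1 tdTOMATO+ colony.

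Among joint surface genes, Htra1, a secreted protease, read 1885, 2743 and 3387 normalized counts in tdTOMATO+ colonies, against 1736, 1273 and 1797 in tdTOMATO- colonies (0.71 ± 0.24; limma adjusted p = 0.299), without overlap and with a sign opposite to that of Cilp2 in the same list. The tendon factor Scx read 98.0, 42.0 and 64.3 in tdTOMATO+ colonies, against 141, 76.2 and 45.1 in tdTOMATO- colonies (-0.29 ± 0.47; limma adjusted p = 0.881). Adipoq, the adipocyte hormone adiponectin, read 65.0, 36.0 and 100.5 in tdTOMATO+ colonies, against 0, 59.8 and 56.1 in tdTOMATO- colonies. Its groups thus overlapped (2.05 ± 1.71, SE; limma adjusted p = 0.731). Of the 5 measured adipocyte genes, 4 had a log2 fold change below 0.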
